A study of Drosophila melanogaster with 12 samples.

Results

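The 9 genes described here are Niemann-Pick sterol transport genes on the arrays, *Npc1b* and the 8 genes *Npc2a* to *Npc2h*. They were taken by gene symbol from the 13554 genes measured, whatever their values. *Npc1a*, the other *NPC1* gene, was also measured. It is not among the 9 and is given below with other sterol genes. RNA came from whole bodies of 10 *Drosophila melanogaster* males per sample, 5 days old, on Affymetrix Drosophila Gene 1.0 ST arrays. The 12 arrays form 4 groups of 3. These are *dSTINGΔ* males kept for 24 h without food on moist paper, control males (*w1118*) kept in the same way, *dSTINGΔ* males on regular food and control males on regular food. *dSTINGΔ* is a deletion at *dSTING* (CG1667), the fly homolog of the innate immune adaptor STING. It was made by imprecise excision of a P element and kept as a homozygous stock that carries *w1118*. No rescued stock was on these arrays, so the deletion and anything else that differs between the stocks cannot be told apart.

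Niemann-Pick proteins carry sterols out of the late endosome and lysosome. NPC2 proteins are small soluble carriers that bind a single sterol molecule in a pocket and hand it to the membrane protein NPC1, and loss of either protein in humans leaves cholesterol trapped in lysosomes. Flies cannot make sterols and take them from food. They have a pair of *NPC1* genes, of which *Npc1a* acts in most tissues and *Npc1b* in absorption of dietary sterol by the midgut, and a family of *Npc2* genes. *Npc2a* and *Npc2b* are known for sterol homeostasis and for the supply of sterol for ecdysteroid hormones, and Npc2a, Npc2e and Npc2h are known to bind bacterial cell wall products. The gene annotation deposited with the values gave sterol binding and sterol transport to all 8 *Npc2* genes and intestinal cholesterol absorption to *Npc1b*, the only gene in the table with that term. It gave binding of lipopolysaccharide and peptidoglycan to *Npc2a*, *Npc2e* and *Npc2h*, hemolymph coagulation to *Npc2g* and *Npc2h*, and ecdysteroid biosynthesis to *Npc2a* and *Npc2b*.

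All levels are log2 values after robust multi-array averaging (RMA), in which a difference of 1 is a 2-fold change. Array medians lay between 5.82 and 5.88. The *dSTING* signal was 2.36 to 2.57 in *dSTINGΔ* starved and 5.24 to 5.49 in control starved flies, and 1.98 to 2.38 in *dSTINGΔ* fed and 5.44 to 6.28 in control fed flies, so every array matched its genotype label. A pair of arrays stood apart. *dSTINGΔ* starved replicate 2 had the highest mean over 23 Imd immune pathway genes, 6.89, against 5.14 in the lowest array of its group and at most 5.59 in the other groups. Leaving out control fed replicate 1 raised the number of all genes called between starved and fed control flies to 3002, against 1522 with it. The labels number the samples without saying that they were reared apart, so p-values measure the spread between these samples, which may be technical.

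Of the 9 Niemann-Pick genes, 5 were lower both in *dSTINGΔ* than in control flies and in starved than in fed flies. *Npc1b*, *Npc2b*, *Npc2g* and *Npc2h* fell in both genotype comparisons and in both starvation comparisons, and *Npc2d* fell in 3 of these 4. *Npc2c* went the other way in starved mutants, and *Npc2a*, *Npc2e* and *Npc2f* passed the test in none. Calls rest on a limma fit of all 12 arrays, with a threshold of 0.05 on the p-value after Benjamini-Hochberg adjustment for the 13554 genes tested. In fed flies 4 of the 9 genes were lower and 0 higher in *dSTINGΔ* than in control, with a median log2 fold change of -0.50 (-0.01 over all genes). Of all genes 6.26% were called lower and 6.20% higher in this comparison. In starved flies 5 were lower and 1 higher in *dSTINGΔ*, with a median of -0.76 (0.00 over all genes), where 10.9% of all genes were lower and 9.01% higher.

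Between starved and fed flies the counts were alike. In *dSTINGΔ* flies 5 of the 9 were lower and 1 higher after starvation, with a median log2 fold change of -0.83 (0.02 over all genes), where 9.52% of all genes were lower and 7.30% higher. In control flies 5 were lower and 0 higher, with a median of -0.58, where 5.55% of all genes were lower and 5.68% higher. The genotype comparison in fed flies and the starvation comparison in controls share the control fed arrays, so their fold changes are given side by side and not set against each other. With genotype averaged over feeding, 5 of the 9 were lower in *dSTINGΔ*, against 12.6% of all genes.

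**Figure D1:**
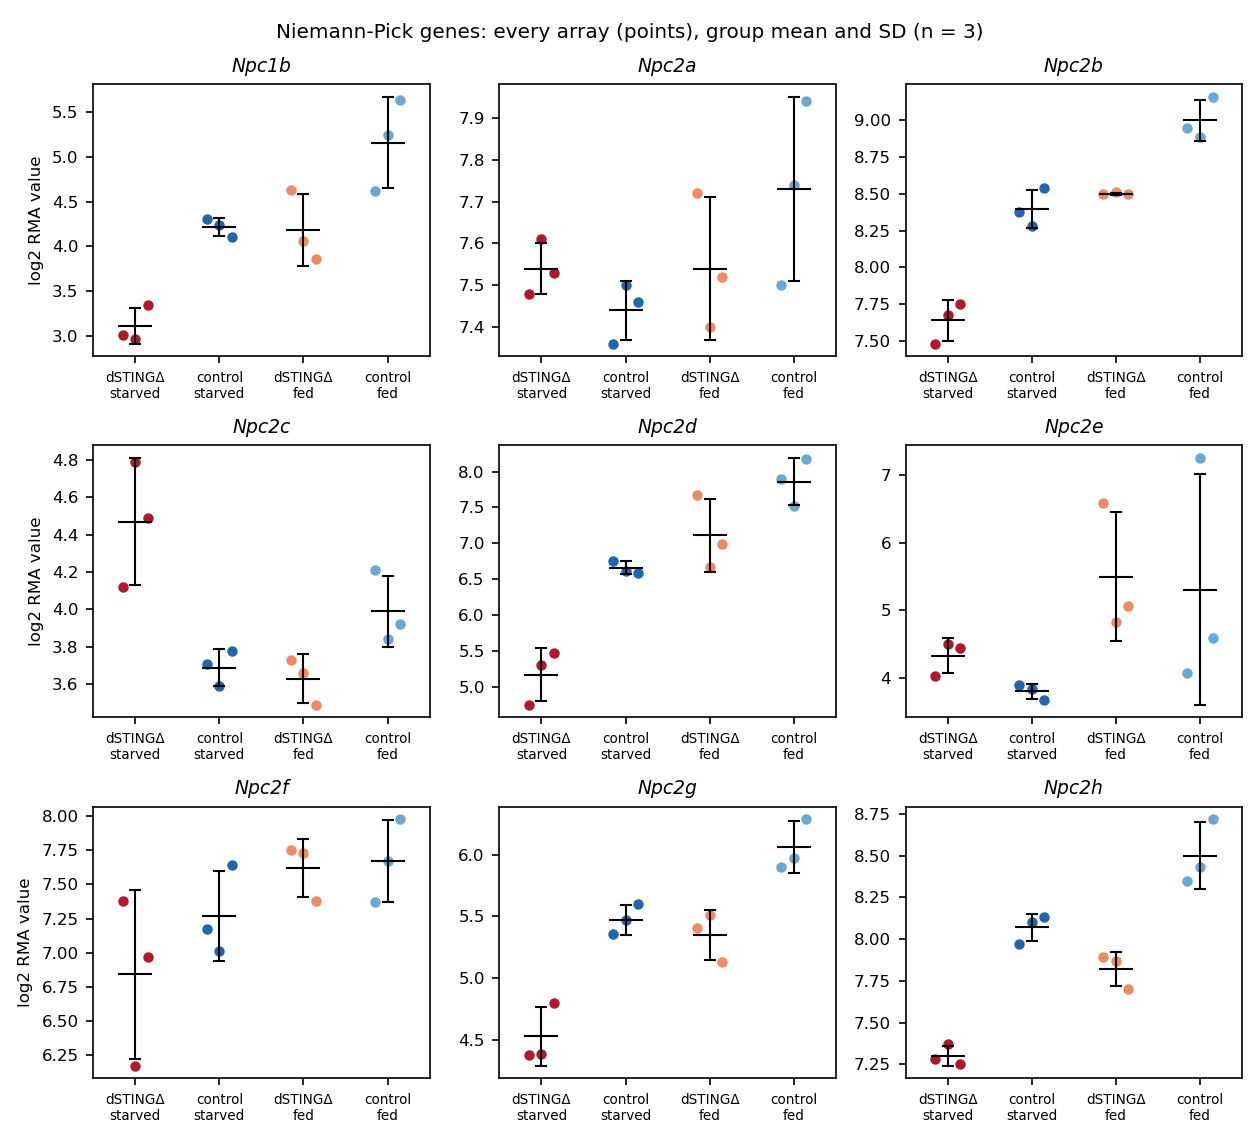
Log2 RMA value of each Niemann-Pick gene (y axis, own scale per panel) in every array (points), with the mean and SD of the 3 arrays of each group (black), for dSTINGΔ starved, control starved, dSTINGΔ fed and control fed flies. In Npc1b, Npc2b, Npc2d, Npc2g and Npc2h the dSTINGΔ starved arrays are the lowest and the control fed mean is the highest, while Npc2c is highest in dSTINGΔ starved flies and single fed arrays of Npc2e reach 6.59 and 7.26.

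*Npc1b*, the membrane protein of intestinal sterol uptake, had values of 3.01, 2.97 and 3.34 in *dSTINGΔ* starved flies, against 4.31, 4.24 and 4.10 in control starved flies (replicates 1 to 3, as in all lists of 3 values here). In fed flies it had 4.63, 4.06 and 3.86 in *dSTINGΔ*, against 4.62, 5.24 and 5.63 in control. The starved groups did not overlap, while in fed flies *dSTINGΔ* replicate 1 lay level with control replicate 1. *Npc1b* was 2.16-fold lower in *dSTINGΔ* than in control under starvation (log2 fold change -1.11, SE 0.23, adjusted p = 0.00515, limma) and 1.97-fold lower under feeding (-0.98, SE 0.23, adjusted p = 0.0169, limma). After starvation it was 2.11-fold lower in *dSTINGΔ* (adjusted p = 0.00640, limma) and 1.92-fold lower in control flies (adjusted p = 0.0253, limma).

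The calls of *Npc1b* in the fed genotype comparison and in control starvation rested on few arrays. In fed flies the limma adjusted p became 0.0611 or 0.0777 when *dSTINGΔ* fed replicate 2 or 3 was left out, 0.0656 without control fed replicate 3, and 0.0664 when only the 6 arrays compared were fitted. In control flies the starvation call was lost without control fed replicate 2 or 3 and without any 1 of the control starved arrays, with adjusted p between 0.0548 and 0.103. All *Npc1b* values lay below the array medians, where RMA values of weak signals understate fold changes.

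*Npc2b*, a soluble sterol carrier, had values of 7.48, 7.68 and 7.75 in *dSTINGΔ* starved flies, against 8.38, 8.28 and 8.54 in control starved flies. In fed flies the values were 8.50, 8.51 and 8.50 in *dSTINGΔ*, against 8.95, 8.89 and 9.16 in control. Neither pair of groups overlapped. The gene was 1.70-fold lower in *dSTINGΔ* under starvation (log2 fold change -0.76, SE 0.10, adjusted p = 2.4e-04, limma) and 1.41-fold lower under feeding (-0.50, SE 0.10, adjusted p = 0.00741, limma). After starvation it was 1.82-fold lower in *dSTINGΔ* (adjusted p = 8.0e-05, limma) and 1.51-fold lower in control flies (adjusted p = 0.00550, limma). The interaction of genotype and feeding was -0.27 (95% confidence interval -0.58 to 0.04, adjusted p = 0.352, limma), so the fall after starvation was not shown to differ between genotypes.

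*Npc2g* and *Npc2h* are immediate neighbours on the chromosome in the RefSeq annotation. *Npc2g* had values of 4.38, 4.39 and 4.80 in *dSTINGΔ* starved flies and 5.36, 5.47 and 5.60 in control starved flies. In fed flies it had 5.41, 5.51 and 5.13 in *dSTINGΔ* and 5.90, 5.97 and 6.29 in control. In each of the 4 comparisons its groups were apart. *Npc2g* was 1.93-fold lower in *dSTINGΔ* than in control under starvation (log2 fold change -0.95, SE 0.14, adjusted p = 6.1e-04, limma) and 1.63-fold lower under feeding (-0.70, SE 0.14, adjusted p = 0.00730, limma).

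*Npc2h*, which carries the annotation for binding of bacterial wall products, had values of 7.28, 7.37 and 7.25 in *dSTINGΔ* starved flies and 7.97, 8.10 and 8.13 in control starved flies. Under feeding it had 7.89, 7.87 and 7.70 in *dSTINGΔ* and 8.35, 8.43 and 8.72 in control. Its groups were apart in all 4 comparisons as well. *Npc2h* was 1.71-fold lower in *dSTINGΔ* under starvation (log2 fold change -0.77, SE 0.10, adjusted p = 2.7e-04, limma) and 1.60-fold lower under feeding (-0.68, SE 0.10, adjusted p = 0.00119, limma).

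After starvation both genes were lower in both genotypes. *Npc2g* was 1.77-fold lower after starvation in *dSTINGΔ* (adjusted p = 0.00139, limma) and had a log2 fold change of -0.58 in control flies (adjusted p = 0.0252, limma). *Npc2h* was 1.44-fold lower after starvation in *dSTINGΔ* (adjusted p = 0.00359, limma) and 1.35-fold lower in control flies (adjusted p = 0.0233, limma). The falls in control flies were the less secure. Both were lost without control fed replicate 3 and without control starved replicate 1 or 2, with adjusted p of 0.0786 to 0.106 for *Npc2g* and 0.0647 to 0.101 for *Npc2h* in limma.

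*Npc2e*, *Npc2d* and *Npc2c* lie side by side in this order in the RefSeq annotation, and their responses differed. *Npc2d*, annotated as a sterol carrier, had values of 4.75, 5.30 and 5.47 in *dSTINGΔ* starved flies, against 6.76, 6.62 and 6.59 in control starved flies. On regular food it had 7.67, 6.67 and 6.99 in *dSTINGΔ*, against 7.89, 7.52 and 8.18 in control. The starved groups were far apart, while *dSTINGΔ* fed replicate 1 lay within the range of control fed flies. *Npc2d* was 2.79-fold lower in *dSTINGΔ* under starvation (log2 fold change -1.48, SE 0.24, adjusted p = 0.00106, limma). In fed flies the log2 fold change of -0.75 (SE 0.24) did not pass the test (adjusted p = 0.0644, limma), though it did without *dSTINGΔ* fed replicate 1 (-1.03, adjusted p = 0.0139) or without control fed replicate 2 (-0.92, adjusted p = 0.0448). Among the 9 genes *Npc2d* had the largest called changes with starvation, 3.83-fold lower in *dSTINGΔ* (adjusted p = 1.3e-04, limma) and 2.31-fold lower in control flies (adjusted p = 0.0112, limma). The value in control flies had an adjusted p of 0.0516 without control fed replicate 3.

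*Npc2c*, also annotated as a sterol carrier, had values of 4.12, 4.79 and 4.49 in *dSTINGΔ* starved flies, against 3.71, 3.59 and 3.78 in control starved flies. In fed flies the values were 3.73, 3.66 and 3.49 in *dSTINGΔ*, against 4.21, 3.84 and 3.92 in control. The *dSTINGΔ* arrays were all above control in starved flies and all below it in fed flies. *Npc2c* was 1.71-fold higher in *dSTINGΔ* under starvation (log2 fold change 0.77, SE 0.15, adjusted p = 0.00357, limma) and 1.79-fold higher in starved than in fed *dSTINGΔ* flies (0.84, SE 0.15, adjusted p = 0.00191, limma). Its change in fed flies (-0.36, adjusted p = 0.147, limma) and with starvation in control flies (-0.30, adjusted p = 0.221, limma) did not pass. Without *dSTINGΔ* starved replicate 2, the array with high Imd pathway values, the starved difference was 0.61 (adjusted p = 0.0150, limma).

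The genotype effect on *Npc2c* differed between starved and fed flies by 1.14 on the log2 scale (SE 0.22, 95% confidence interval 0.67 to 1.61, adjusted p = 0.0279, limma). It was the only 1 of the 9 genes with a called interaction, where 0.590% of all genes had one in this direction. This call was lost without control starved replicate 1 or 2 and without any 1 of the *dSTINGΔ* fed arrays, with adjusted p of 0.0522 to 0.0929 and a difference of 1.07 to 1.19. The signal of *Npc2c* was low on every array.

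*Npc2e*, which carries the annotation for binding of bacterial wall products, had values of 4.03, 4.50 and 4.45 in *dSTINGΔ* starved flies and 3.89, 3.84 and 3.68 in control starved flies. With food its values were 6.59, 4.83 and 5.07 in *dSTINGΔ* and 4.07, 7.26 and 4.59 in control. Fed flies held 1 array in each genotype far above the others, *dSTINGΔ* replicate 1 and control replicate 2. The SD was 0.96 in *dSTINGΔ* fed and 1.71 in control fed flies. No comparison of *Npc2e* passed the test, with log2 fold changes between genotypes of 0.52 in starved flies (SE 0.65, adjusted p = 0.631, limma) and 0.19 in fed flies (SE 0.65, adjusted p = 0.885, limma). The fed difference had no settled sign, at -1.25 with array quality weights (adjusted p = 0.131) and -0.42 without control fed replicate 1 (adjusted p = 0.686). All starved arrays lay below all fed arrays of their own genotype, with log2 fold changes of -1.17 in *dSTINGΔ* (adjusted p = 0.257, limma) and -1.50 in control flies (adjusted p = 0.148, limma). When only the 6 starved arrays were fitted, the difference between genotypes passed (0.52, adjusted p = 0.0237, limma). The fall with starvation in control flies passed without control fed replicate 1 (-2.12, adjusted p = 0.0334, limma) and with array quality weights (-2.99, adjusted p = 0.00151, limma), and that in *dSTINGΔ* flies without control fed replicate 2 (-1.17, adjusted p = 0.0446, limma). Array quality weights called 4528 of all genes between starved and fed control flies, against 1522 without them.

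None of the genes flanking these clusters was called lower in *dSTINGΔ* than in control flies. *Fancl*, next to *Npc2e*, was higher in *dSTINGΔ* under starvation (log2 fold change 1.07, SE 0.12, adjusted p = 5.5e-05, limma) and gave 0.12 in fed flies (adjusted p = 0.549). *CG33630*, on the other side of *Npc2c*, gave -0.07 in starved and -0.04 in fed flies (adjusted p = 0.651 and 0.845). Beside *Npc2g*, *CG15543* gave -0.31 and -0.19 (adjusted p = 0.110 and 0.383), and beside *Npc2h*, *zfh1* gave 0.09 and 0.16 (adjusted p = 0.560 and 0.309). Members of a gene family can share probe sequence, and cross-hybridisation between the *Npc2* genes was not tested.

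**Figure D2:**
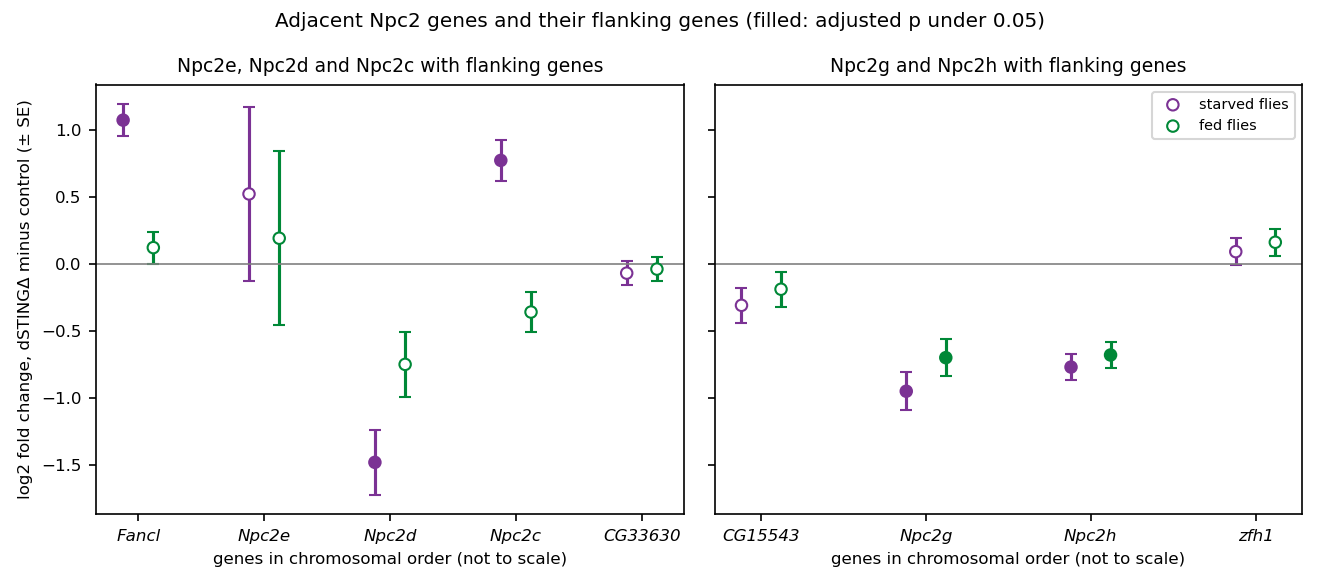
Log2 fold change, dSTINGΔ minus control, with its standard error (y axis) for the adjacent Npc2 genes and their flanking genes in chromosomal order (x axis, not to scale), in starved and in fed flies, with filled points for an adjusted p under 0.05. Npc2g and Npc2h lie below 0 in both, while under starvation Npc2d is at -1.48 between Npc2e at 0.52 and Npc2c at 0.77.

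The neighbours of the other Niemann-Pick genes were not called lower in *dSTINGΔ* than in control flies either. *Npc2b* lies between *foxo*, a transcription factor of insulin signaling, and *CCHa1*, a neuropeptide gene. *foxo* was higher in *dSTINGΔ* under starvation (0.32, adjusted p = 0.0157, limma) and *CCHa1* gave -0.17 (adjusted p = 0.479). *Npc1b* lies between *CG11227*, which gave 0.17 in starved and 0.07 in fed flies, and the serine protease gene *Ser6*. *Ser6* was higher in *dSTINGΔ*, with log2 fold changes of 1.13 under starvation (SE 0.33, adjusted p = 0.0283, limma) and 2.17 under feeding (SE 0.33, adjusted p = 0.00104, limma). The neighbours of *Npc2a* (*Got2* and *CR42874*) and of *Npc2f* (*Sec10* and *Kal1*) were not called between genotypes, with log2 fold changes of -0.26 to 0.12. After starvation in *dSTINGΔ* flies *Ser6* was lower (-1.23, adjusted p = 0.0202, limma), as *Npc1b* was, and so was *Kal1* (-0.38, adjusted p = 0.0363, limma). More neighbours rose in that comparison. These were *Fancl* (0.84, adjusted p = 2.6e-04, limma), *foxo* (0.63, adjusted p = 1.8e-04, limma), *Got2* (0.40, adjusted p = 0.0368, limma) and *zfh1* (0.33, adjusted p = 0.0350, limma).

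*Npc2a* and *Npc2f* passed the test in no comparison. *Npc2a*, the *Npc2* gene annotated for sterol homeostasis, had values of 7.48, 7.61 and 7.53 in *dSTINGΔ* starved and 7.36, 7.50 and 7.46 in control starved flies. In fed flies it had 7.72, 7.40 and 7.52 in *dSTINGΔ* and 7.50, 7.74 and 7.94 in control. The genotypes overlapped under both conditions. The 95% confidence interval of the log2 difference between genotypes was -0.15 to 0.35 in starved flies (adjusted p = 0.615, limma) and -0.44 to 0.07 in fed flies (adjusted p = 0.336, limma). The starvation change in control flies, -0.29 (adjusted p = 0.124, limma), passed without control fed replicate 1 (-0.40, adjusted p = 0.0247).

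*Npc2f*, annotated as a sterol carrier, had values of 7.38, 6.17 and 6.97 in *dSTINGΔ* starved and 7.17, 7.01 and 7.64 in control starved flies. The fed values were 7.75, 7.73 and 7.38 in *dSTINGΔ* and 7.37, 7.67 and 7.98 in control. Groups overlapped in all 4 comparisons, and the spread was widest in *dSTINGΔ* starved flies, where replicate 2 was low. The log2 fold change between genotypes was -0.43 in starved flies (95% confidence interval -1.01 to 0.15, adjusted p = 0.290, limma) and -0.06 in fed flies (-0.63 to 0.52, adjusted p = 0.920, limma). After starvation it was -0.77 in *dSTINGΔ* (adjusted p = 0.0672, or -1.05 and 0.0189 without *dSTINGΔ* starved replicate 1, limma) and -0.40 in control flies (adjusted p = 0.348, limma).

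**Figure D3:**
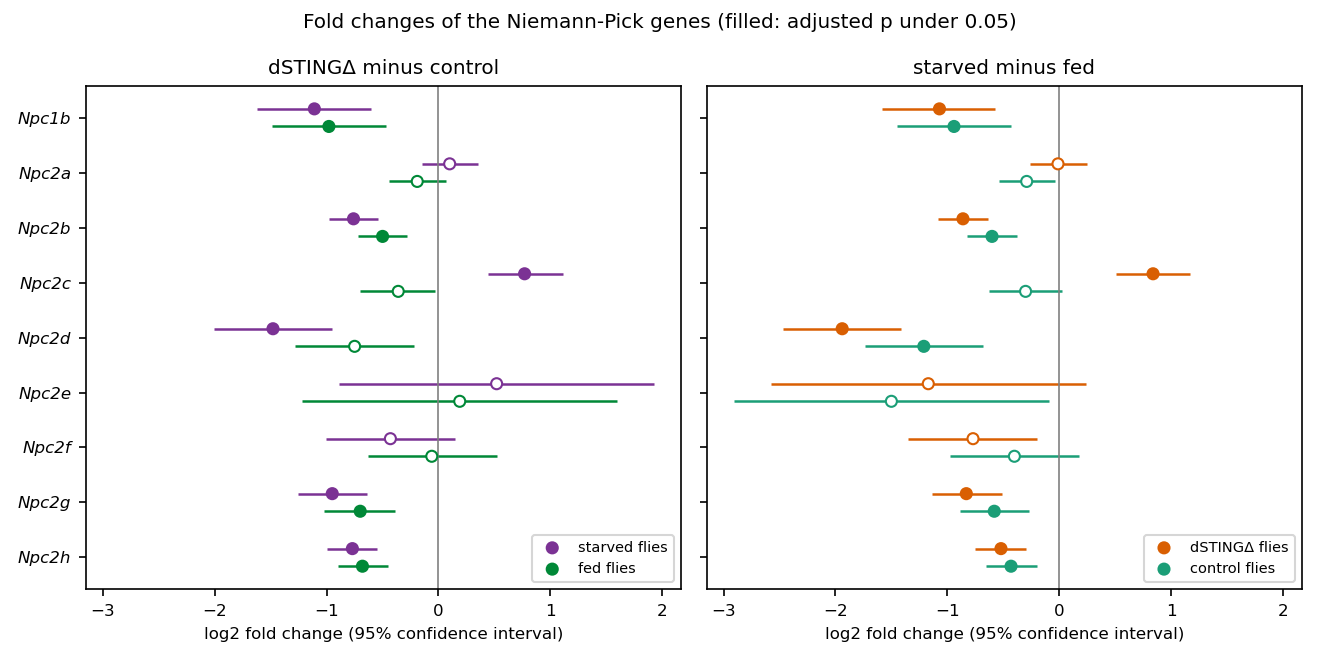
Log2 fold change with its 95% confidence interval (x axis) of each Niemann-Pick gene, for dSTINGΔ minus control in starved and fed flies (left) and starved minus fed in dSTINGΔ and control flies (right), with filled points for an adjusted p under 0.05. Npc1b, Npc2b, Npc2d, Npc2g and Npc2h lie below 0 in all 4 comparisons, and Npc2c lies at 0.77 and 0.84 in the comparisons that hold dSTINGΔ starved flies.

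Averaged over feeding, the log2 fold change of *dSTINGΔ* against control was -1.12 for *Npc2d* (SE 0.17, adjusted p = 4.6e-04, limma) and -1.05 for *Npc1b* (SE 0.17, adjusted p = 5.4e-04, limma). The averaged effect was -0.83 for *Npc2g* (SE 0.10, adjusted p = 8.6e-05, limma), -0.72 for *Npc2h* (SE 0.07, adjusted p = 1.9e-05, limma) and -0.63 for *Npc2b* (SE 0.07, adjusted p = 4.8e-05, limma). The interaction of these 5 genes lay between -0.73 for *Npc2d* and -0.09 for *Npc2h*, and none passed. The interval for *Npc2d*, -1.48 to 0.02, reached far below 0.

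By count of arrays apart from each other, *dSTINGΔ* lay wholly below control in 5 of the 9 genes under starvation (*Npc1b*, *Npc2b*, *Npc2d*, *Npc2g* and *Npc2h*), against 21.9% of all genes. In fed flies it did so in *Npc2b*, *Npc2c*, *Npc2g* and *Npc2h*, against 13.7% of all genes. In *dSTINGΔ* flies the starved arrays lay wholly below the fed arrays in *Npc1b*, *Npc2b*, *Npc2d*, *Npc2e*, *Npc2g* and *Npc2h*, against 19.6% of all genes. In control flies all genes but *Npc2f* did so, against 13.0% of all genes.

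For *Npc1b*, *Npc2b*, *Npc2d*, *Npc2g* and *Npc2h* the groups came in 1 order at the ends, lowest in *dSTINGΔ* starved and highest in control fed flies, with *dSTINGΔ* fed and control starved flies between them. These middle groups share no arrays and were set against each other in a comparison added after the data had been seen. None of the 9 genes was called between *dSTINGΔ* fed and control starved flies, where 14.5% of all genes were called. At that share, no call among 9 genes does not set them apart from other genes or show that the groups are alike. The log2 difference was -0.04 for *Npc1b* (95% confidence interval -0.54 to 0.47, adjusted p = 0.943, limma), 0.10 for *Npc2b* (-0.12 to 0.32, adjusted p = 0.582) and -0.12 for *Npc2g* (-0.44 to 0.19, adjusted p = 0.644). It was 0.46 for *Npc2d* (-0.07 to 0.99, adjusted p = 0.254). *Npc2h* was the closest of these 5 to a difference, at -0.25 (-0.47 to -0.02, adjusted p = 0.137), with all *dSTINGΔ* fed arrays below all control starved arrays. *Npc2e* gave 1.70 (0.29 to 3.11, adjusted p = 0.105), also without overlap.

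Over the 12 arrays the levels of *Npc1b*, *Npc2b*, *Npc2d*, *Npc2g* and *Npc2h* followed each other, with Pearson's r between 0.88 and 0.97 for each pair. These arrays share their 4 groups. With each group's mean removed, r was between 0.30 and 0.66. This was not particular to the 5, as *Npc2a*, called in no comparison, then had r of 0.36 to 0.79 with them. *Npc2c* ran against these 5 genes and *Npc2f* over the 12 arrays (r of -0.64 to -0.45), but with group means removed its r was 0.45 with *Npc2b*, 0.48 with *Npc2d*, 0.09 with *Npc2g*, 0.07 with *Npc2h*, -0.16 with *Npc1b* and -0.57 with *Npc2f*. Over the 12 arrays *Npc2e* followed none of the 5 genes closely (0.19 to 0.41).

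The genes most like the 4 members called in both genotype comparisons were found by Pearson's r over the same 12 arrays. *Npc1b* was closest to *CG11162* (0.975), *CG7381* (0.973) and *SPE* (0.967), the last a protease that processes the Toll ligand Spätzle. *Npc2b* was closest to *Mtp* (0.987), which loads lipid onto lipophorin, then *CG16926* (0.983) and *CG9458* (0.980). *Npc2g* was closest to the esterase gene *alpha-Est7* (0.979), *Sfp33A2* (0.977) and *CG9372* (0.976). *Npc2h* was closest to *Ppn* (0.983), the matrix protein papilin, then *spt4* (0.982) and *CG17734* (0.979). All 12 of these genes had a negative log2 fold change in *dSTINGΔ* in fed and in starved flies, as the choice by likeness would give.

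In whole bodies, fewer cells of a type and less RNA per cell cannot be told apart. Beside the marker counts below, 10.9% of all genes were lower and 9.01% higher in *dSTINGΔ* under starvation, and 6.26% and 6.20% under feeding. With starvation 9.52% were lower and 7.30% higher in *dSTINGΔ*, and 5.55% and 5.68% in control flies. Markers of hemocytes, the fly blood cells, moved with the genes that fell. Of 7 hemocyte markers 5 were lower in *dSTINGΔ* in starved flies and 5 in fed flies, with none higher. After starvation 2 of 7 were lower in *dSTINGΔ* and 3 in control flies. Their mean per array was 4.35 to 4.68 in *dSTINGΔ* starved and 5.19 to 5.26 in control starved flies, and 4.79 to 5.05 in *dSTINGΔ* fed and 5.50 to 5.96 in control fed flies. *Hml*, a clotting protein of hemocytes, fell by 1.38 on the log2 scale under starvation (adjusted p = 1.6e-04, limma) and 1.04 under feeding (adjusted p = 0.00207, limma), while the receptor *eater* (group means of 2.13 to 2.41) and the transcription factor *srp* were not called. *Ppn*, the gene closest to *Npc2h*, is 1 of these 7. The part of hemocytes in the fall of the Niemann-Pick genes was not tested.

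Fat body markers also moved with genotype in starved flies, where 5 of 9 were lower and 1 higher in *dSTINGΔ*, with array means of 7.65 to 8.02 in *dSTINGΔ* and 8.36 to 8.61 in control. In fed flies 1 of 9 was lower and 0 higher, with array means of 8.45 to 8.60 in *dSTINGΔ* and 8.68 to 8.72 in control. After starvation 4 of 9 were lower and 1 higher in *dSTINGΔ*, and 3 lower and 2 higher in control flies. Of 3 Malpighian tubule markers, 2 were lower in *dSTINGΔ* under starvation and 1 under feeding, and 1 was lower after starvation in each genotype. Of 4 muscle markers, 1 was lower in *dSTINGΔ* in each condition. After starvation 2 were lower in *dSTINGΔ* and 1 in control flies. Of 5 head and neuron markers, 2 were higher in *dSTINGΔ* under feeding and 0 under starvation, and 1 was higher after starvation in control flies. Of 7 testis markers, 1 was higher in *dSTINGΔ* under feeding, and 1 higher and 1 lower under starvation. None of 2 trachea and cuticle markers was called. Accessory gland markers were lower in *dSTINGΔ* in 3 of 4 genes under starvation and in 0 under feeding, and after starvation they were lower in 4 of 4 in *dSTINGΔ* and 2 of 4 in control. Of 17 markers of the midgut, the tissue in which *Npc1b* acts, 5 were higher and 1 lower in *dSTINGΔ* under starvation. Under feeding 3 were higher and 1 lower. Those higher were all digestive enzyme genes, the Jonah proteases *Jon25Bi*, *Jon65Aiii* and *Jon65Aiv* and the amylases *Amy-p* and *Amy-d* (group means of 1.59 to 2.14 for *Amy-d*). The trypsin gene *lambdaTry* was the lower 1 in both conditions. The other midgut markers, such as *lab* and *GATAe*, were not called. Array means of the midgut markers were 7.35 to 7.78 in *dSTINGΔ* starved and 7.17 to 7.65 in control starved flies, and 7.98 to 8.11 in *dSTINGΔ* fed and 7.64 to 7.89 in control fed flies. After starvation 4 of 17 midgut markers were lower in each genotype and 0 higher. *apolpp* and *Mtp*, on the fat body list, are also among the sterol genes described next, and the part of these tissues in the changes of the Niemann-Pick genes was not tested.

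Of 38 other genes of sterol and lipid handling, 7 were higher and 10 lower in *dSTINGΔ* under starvation (median log2 fold change -0.16), and 0 higher and 6 lower under feeding (0.05). After starvation 5 were higher and 5 lower in *dSTINGΔ*, and 3 higher and 4 lower in control flies. Among the 13554 genes measured, the shares called higher and lower were 9.01% and 10.9% between starved genotypes, then 6.20% and 6.26% between fed genotypes. For starved against fed flies these shares were 7.30% and 9.52% (*dSTINGΔ*), then 5.68% and 5.55% (control). *Npc1a*, the other *NPC1* gene, was not called between genotypes, at -0.15 in starved (adjusted p = 0.244, limma) and 0.11 in fed flies (adjusted p = 0.440, limma). *Hr96*, which encodes the sterol-responsive nuclear receptor DHR96, gave -0.07 and 0.06 (adjusted p = 0.630 and 0.738). *mag*, the intestinal lipase and sterol esterase Magro, had 7.55, 7.21 and 7.20 in *dSTINGΔ* starved flies, against 8.33, 8.71 and 8.16 in control starved flies (log2 fold change -1.09, adjusted p = 3.2e-04, limma). In fed flies its difference was -0.49 (adjusted p = 0.0508, limma), and it fell after starvation in *dSTINGΔ* and in control flies (adjusted p = 1.8e-05 and 0.00292, limma). It thus fell in the same comparisons as *Npc2d*.

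Among the genes of lipophorin transport, some were lower and 1 was higher in *dSTINGΔ*. *apolpp*, the apolipoprotein of the particles that carry sterol and fat in hemolymph, had 8.73, 8.63 and 8.86 in *dSTINGΔ* starved flies, against 9.89, 10.24 and 10.35 in control starved flies (-1.42, adjusted p = 4.4e-06, limma), and -0.10 as its difference in fed flies (adjusted p = 0.633). *Mtp*, which loads these particles, was lower in *dSTINGΔ* under starvation (-0.56, adjusted p = 0.00255, limma) and feeding (-0.36, adjusted p = 0.0439, limma). *LpR1*, a lipophorin receptor, was higher in *dSTINGΔ* under starvation, with 9.10 ± 0.12 in *dSTINGΔ* against 8.05 ± 0.21 in control (SD, n = 3 arrays; log2 fold change 1.05, adjusted p = 5.3e-05, limma).

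Some other called genes of the list were higher in *dSTINGΔ* than in control flies under starvation, as *Npc2c* was. *CG8112*, a homolog of the enzymes that esterify sterol, was higher in *dSTINGΔ* under starvation (0.91, adjusted p = 4.9e-04, limma), and rose after starvation in *dSTINGΔ* by 1.47 and in control by 0.79 (adjusted p = 1.4e-05 and 0.00502, limma). *SREBP*, a regulator of lipid synthesis, was higher in *dSTINGΔ* under starvation by 0.65 (adjusted p = 0.00105, limma), and so was *Gba1b*, a lysosomal glucocerebrosidase, by 0.58 (adjusted p = 0.00179, limma). *CG31148*, a second glucocerebrosidase gene, was lower in *dSTINGΔ* in starved flies (-1.62, adjusted p = 6.6e-04, limma) and in fed flies (-1.36, adjusted p = 0.00362, limma).

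**Figure D4:**
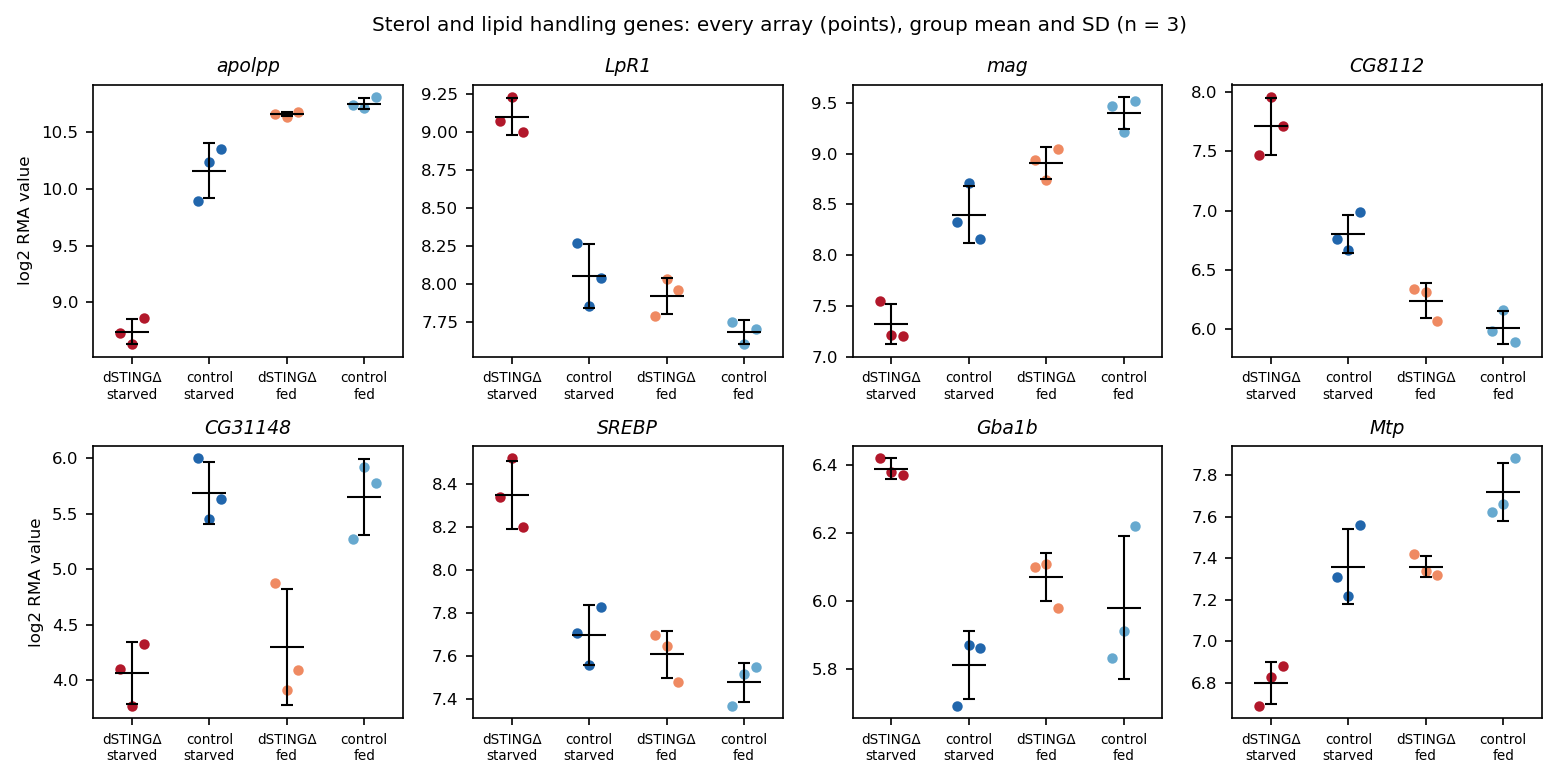
Log2 RMA value (y axis, own scale per panel) of the 8 genes with the smallest adjusted p between genotypes among 38 other sterol and lipid handling genes, in every array (points) with group mean and SD, for dSTINGΔ starved, control starved, dSTINGΔ fed and control fed flies. The dSTINGΔ starved arrays are the lowest of all in apolpp, mag and Mtp and the highest of all in LpR1, CG8112, SREBP and Gba1b.

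Among 20 lysosome and endosome genes, the compartment in which NPC2 proteins act, 6 were lower and 0 higher in *dSTINGΔ* under starvation (median log2 fold change -0.13) and 2 were lower and 0 higher under feeding (-0.08). *CtsB1*, a lysosomal cysteine protease, was lower in both (-0.72 and -0.68, adjusted p = 0.0185 and 0.0343, limma), as 4 of the Niemann-Pick genes were. The Imd pathway answers to bacterial peptidoglycan, which Npc2a, Npc2e and Npc2h are annotated to bind. Of 23 genes of this pathway, 3 were higher and 1 lower in *dSTINGΔ* under starvation and 0 higher and 1 lower under feeding. Of all genes, 9.01% were higher and 10.9% lower under starvation, and 6.20% and 6.26% under feeding. The Imd genes higher under starvation were *Rel* (1.18, adjusted p = 1.8e-05, limma), *pirk* (0.99, adjusted p = 0.0289, limma) and *Tab2* (0.57, adjusted p = 0.00261, limma). *PGRP-SD*, a peptidoglycan recognition protein, was the Imd gene lower in both conditions (-1.03 and -1.29, adjusted p = 0.0325 and 0.0167, limma). *Npc2h* fell in these same comparisons, and *Npc2a* and *Npc2e* passed in neither.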

How the data were processed

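The authors normalized the arrays by RMA (affy 1.48.0, R 3.2.0) with a probe set per Entrez gene and deposited log2 values, 1 per gene and array. The table covers 13554 genes and values of 1.11 to 12.24, and the sample records repeat its log2 values to 2 decimals. Its columns name groups, and each of the 12 matched exactly 1 sample record of its group within 0.0051, which gave the replicate numbers. Columns of the authors' own comparisons (fold changes, p-values) were not used. Here limma 3.58.1 (R 4.3.3) fitted 1 mean per group to all 12 arrays (8 residual and 4.50 prior degrees of freedom), tested on simulated data first. Confidence intervals are 95% and unadjusted. The number of arrays limits the precision. Named beside the 9 genes are, by rule, their neighbours, the 3 genes most alike and up to 8 sterol genes. Neighbours came from RefSeq (Release 6), which held 13253 of the Entrez identifiers, and the build of the array mapping is not given in the sources used here. Protein and promoter sequences were not used. *Hml*, *eater*, *srp*, *CtsB1*, *Rel*, *pirk*, *Tab2*, *PGRP-SD* and the named midgut markers were named after their values were seen. The members and lists were chosen with earlier results of these data known. Alternatives covered the samples, weights, scaling, filter and thresholds.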

Additional observations from a re-analysis of the deposited data

Results flagged for a closer look

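*Npc2c* was the 1 member whose genotype effect differed between feeding conditions by a test of the difference itself. The log2 fold change of *dSTINGΔ* against control was 0.77 in starved flies and -0.36 in fed flies, the latter not called. These values of opposite sign differed by 1.14 (SE 0.22, adjusted p = 0.0279, limma). All *dSTINGΔ* arrays lay above control in starved flies and all below it in fed flies. The interaction call was lost without any 1 of 5 arrays (adjusted p of 0.0522 to 0.0929) and with the replicate block (adjusted p = 0.0587, limma). Array quality weights also called the interaction of *Npc2d* (-1.15, adjusted p = 0.0331, limma). With these weights the interaction was called in 2096 of the 13554 genes, against 180 without them.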

How the results depend on the processing

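No called value of the 9 genes changed sign under an alternative that was run. Uncalled values did so 14 times in 4 genes (*Npc1b*, *Npc2a*, *Npc2e*, *Npc2f*), the widest in *Npc2e* in fed flies, -1.25 with array quality weights against 0.19. Without each array in turn, the number of the 9 genes called ranged from 3 to 5 between genotypes in fed flies (4 with all arrays), was 6 throughout in starved flies, ranged from 6 to 7 with starvation in *dSTINGΔ* flies (6), from 1 to 7 with starvation in control flies (5), from 5 to 6 for the averaged genotype effect (5) and from 0 to 1 for the interaction (1). Over all 13554 genes the calls between genotypes then ranged from 962 to 2149 in fed flies (1690 with all arrays). They ranged from 1676 to 3304 in starved flies (2705). With starvation they ranged from 1583 to 2622 in *dSTINGΔ* flies (2280) and from 360 to 3002 in control flies (1522). For the averaged effect the range was 2753 to 3464 (3342), and for the interaction 60 to 916 (180). Only *Npc2b* was called with starvation in control flies without control fed replicate 3, and 7 genes were called without control fed replicate 1, where the calls over all genes were 480 and 3002, against 1522 with all arrays. Fitting the 6 arrays compared left 2 genes in that comparison, *Npc2b* and *Npc2d* (315 over all genes), and an adjusted p under 0.01 left 1 (320 over all genes). With only genes above the median signal, which tests 5 of the 9, there were 2 called in fed flies, 3 in starved flies, 3 with starvation in each genotype, 3 for the averaged effect and 0 for the interaction. Repeating quantile normalization over these genes gave 3 in fed flies, with *Npc2d* gained (-0.74, adjusted p = 0.0453, limma), 3 in starved flies, 4 with starvation in *dSTINGΔ* flies, with *Npc2f* gained (-0.77, adjusted p = 0.0454, limma), 3 with starvation in control flies, 3 for the averaged effect and 0 for the interaction. Both settings test 5 members in place of 9. Of the 6777 genes above the median, the filter alone called 1003 in fed flies and 1888 in starved flies. With starvation it called 1857 in *dSTINGΔ* and 1610 in control flies, with 2104 for the averaged effect and 267 for the interaction. With quantile normalization repeated the calls were 1033, 1847, 1871, 1541, 2078 and 257 in the same order. Array quality weights, which ran from 0.32 to 3.87, called the interaction in 2 genes, *Npc2c* and *Npc2d*, and an adjusted p under 0.01 in 0. Over all genes the interaction calls were 2096 and 27, against 180 with neither. Same-numbered arrays did not deviate together (r of -0.45 to 0.37 over 18 pairs, 4 of them over 0.1), so the numbers do not pair the samples. With the replicate block the interaction was called in 0 genes (*Npc2c* adjusted p = 0.0587, limma), and no other call among the 9 genes changed. The averaged genotype effect passed in *Npc2e* without control fed replicate 2 (0.85, adjusted p = 0.0404, limma) and in *Npc2c* without *dSTINGΔ* starved replicate 1 (0.29, adjusted p = 0.0436, limma). *Npc1b*, *Npc2c*, *Npc2e* and *Npc2g* lie below the median signal on average, where precision is limited by weak signal.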

Other observations

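*Npc2e* was not among the genes chosen for the likeness search, and its nearest genes were read after its values were seen. Over the 12 arrays it ran closest to *Mur29B* (Pearson's r = 0.934), *CG14495* (0.900) and *Ssk* (0.897), the last a protein of the septate junctions of the gut. For *Npc2d*, looked up in the same way, *CG10559* (0.983), *FK506-bp2* (0.978) and *Jabba* (0.978), a lipid droplet protein, came closest.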
